A study of Mus musculus with 8 samples.

Results

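The muscular coat of arteries and the pericytes that wrap capillaries are together called mural cells, and 10 of their genes were described in mouse heart RNA. The genes were named by symbol and found by Ensembl identifier among the 30153 genes of the table, and all 10 were present. The contractile smooth muscle genes were 4, Tagln, Myh11, Cnn1 and Mylk, and the pericyte genes were 6, Pdgfrb, Rgs5, Abcc9, Cspg4, Notch3 and Mcam. The members were chosen by measured values of the same contrast, the difference in TPM between the diet groups, for Tagln, Myh11 and Pdgfrb in particular, so the values of these 10 genes between the groups are a description and carry no test.

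The hearts came from aged mice of strain C57/BL6 labelled Haplotype-II, which per the series title overexpress the human angiotensin type 1 receptor. Of the 8 libraries, 4 were of aged Haplotype-II mice, called control here, and 4 of aged Haplotype-II mice given western diet. Both groups carry the haplotype, so neither is a wild type. The labels give no age, sex, length of feeding or batch, no promoter for the receptor gene, and no statement that each library is 1 animal; the tests below see only the variation among these 8 libraries, part of which may be technical. Values are TPM (transcripts per 1000000 transcripts), which are scaled for transcript length and can be compared between genes. The depth behind each value is unknown, because read numbers cannot be had from TPM.

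Smooth muscle cells contract when calcium and calmodulin activate myosin light chain kinase, which phosphorylates the light chains of smooth muscle myosin. Their contractile genes are driven by serum response factor (SRF) with its coactivator myocardin at a DNA element called the CArG box. Pericytes depend on the growth factor PDGF-B, made by endothelium and sensed by PDGF receptor beta, and on Notch3. In the heart they carry an ATP-sensitive potassium channel made of Kir6.1 (Kcnj8) and SUR2 (Abcc9). Several of the 10 genes are not confined to mural cells: for example, SUR2 is also made by cardiomyocytes, and Mcam also by endothelium. The libraries are of whole tissue. Which cells the transcripts of Tagln, Pdgfrb or any other gene named here came from was not tested.

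Promoter sequence is shown here for a contractile member, Mylk, for Myl9, which encodes the light chain that its enzyme phosphorylates, and for Srf. RefSeq (GRCm38.p6) promoters matched 7 of the 10 members; Tagln, Myh11 and Pdgfrb are named only. Each sequence runs 5′ to 3′ and ends where the first exon annotated by GENCODE begins, within the 250 bases before the RefSeq start. Capitals mark the CArG box, searched only as the exact pattern CCWWWWWWGG, where W is A or T. They also mark the motifs TGGGAA (of RBPJ, the DNA-binding partner of Notch) and CATTCC (of TEAD factors), searched on both strands. The last pair can overlap, as they do in the Abcc9 promoter. Mylk is at chr16:34784700-34784920, plus strand, inside the gene, 221 bases. Myl9 is at chr2:156775214-156775419, plus strand, 206 bases. Srf is at chr17:46556176-46556412, minus strand, 237 bases.
Mylk: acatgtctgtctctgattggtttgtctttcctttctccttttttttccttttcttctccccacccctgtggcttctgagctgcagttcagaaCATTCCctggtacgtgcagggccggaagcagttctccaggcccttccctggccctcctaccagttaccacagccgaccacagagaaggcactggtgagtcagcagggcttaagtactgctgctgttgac
Myl9: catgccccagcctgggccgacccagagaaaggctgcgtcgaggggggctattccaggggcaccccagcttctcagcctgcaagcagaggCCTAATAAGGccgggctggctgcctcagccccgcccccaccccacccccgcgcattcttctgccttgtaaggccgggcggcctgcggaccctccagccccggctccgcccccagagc
Srf: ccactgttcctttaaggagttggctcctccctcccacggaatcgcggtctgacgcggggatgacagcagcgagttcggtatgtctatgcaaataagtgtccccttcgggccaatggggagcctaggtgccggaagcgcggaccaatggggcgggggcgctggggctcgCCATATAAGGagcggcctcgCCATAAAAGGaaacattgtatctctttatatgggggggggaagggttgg

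A CArG box was found in the window of Myl9, beginning 161 bases before the start, and in that of Srf at 82 and 62 bases before it. None of the 7 matched members held an exact match in this window, and of these members only Cnn1 and Mylk are contractile genes. Boxes that depart from the exact pattern were not searched. Among 22 matched genes of a list of other contractile genes 4 held an exact match (Myl9, Myl6, Cnn2 and Vcl, picked out by their letters and not by level). Of all 32817 promoters of the same length 1.47% did. The units differ, since a gene was counted if any of its promoters held a match, and some genes have several. CATTCC was found in Mylk and Abcc9 and TGGGAA in Abcc9, where 12.6% and 21.6% of all promoters hold them. These matches describe letters and are not evidence of binding.

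Several libraries stood apart. Transcripts of the Y chromosome were present in the 4 controls and in western diet replicate 4 (Eif2s3y at 21.1 to 29.0 TPM). They were near 0 in western diet replicates 1, 2 and 3 (Eif2s3y at 0.0231 TPM at most). In those replicates, western diet and the lack of Y-linked transcripts cannot be told apart. Atrial transcripts were high in control replicates 1 and 3 and western diet replicate 2 (Myl7 at 184 to 1403 TPM, against 1.10 to 2.87 TPM elsewhere). Cardiomyocyte transcripts dominated every library, as in heart muscle, with Tnnt2 at 5968 to 8164 TPM. For the members fitted and many other genes named below, differences are therefore also given without the 3 libraries with atrial transcripts (the atrial-free set). They are also given with a model term for Y-linked transcripts, whose diet estimate rests on western diet replicate 4.

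In the controls the pericyte genes were mostly the more abundant ones. Rgs5, a regulator that shortens G-protein signalling, had the highest level at 127 ± 9.20 TPM (SD, n = 4 here and below). Abcc9 followed at 43.1 ± 5.41 TPM. Tagln, at 18.6 ± 2.22 TPM, and Mcam, an adhesion molecule, at 17.8 ± 2.25 TPM, differed by less than the spread between libraries. Pdgfrb stood at 14.8 ± 0.886 TPM and Notch3 at 5.12 ± 0.582 TPM. The levels of Myh11, the smooth muscle myosin heavy chain, at 3.06 ± 0.812 TPM, and of Mylk, the kinase, at 2.63 ± 0.226 TPM did not differ beyond their spread. Cspg4, the NG2 proteoglycan of pericytes, was at 1.70 ± 0.414 TPM. Cnn1, the actin-binding calponin 1, was under 1 TPM in all 8 libraries and did not enter the fit across genes. Rgs5 alone made up 54.3 ± 1.66% of the summed TPM of the 10 genes in the controls and 58.6 ± 2.24% with western diet.

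**Figure D1:**
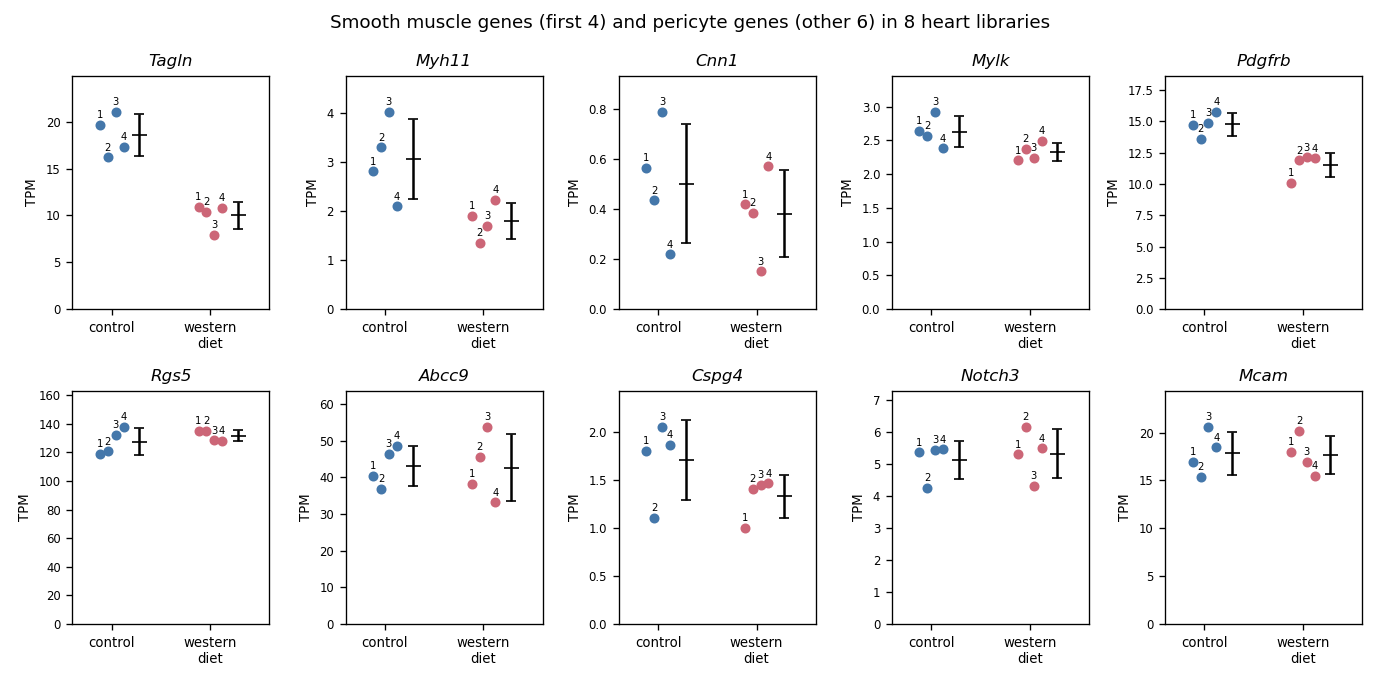
TPM of the 10 genes (vertical axes, each from 0) in each control and western diet library. Points are libraries, numbered by replicate, and bars are the mean and SD of 4. Tagln and Pdgfrb are lower in each western diet library than in any control, and the groups overlap for the other 8 genes.

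Tagln, also called SM22 alpha, binds actin filaments and is among the earliest markers of smooth muscle. It was at 19.7, 16.2, 21.1 and 17.3 TPM in control replicates 1 to 4 and at 10.9, 10.4, 7.92 and 10.8 TPM in western diet replicates 1 to 4. The lowest control lies above the highest western diet library, and western diet replicate 4, which has Y-linked transcripts, lies among the other 3. The mean was 0.539 times that of the controls, a log2 fold change of -0.83 (SE 0.12) on the scale of TPM + 1. It was -0.72 (SE 0.17) without the 3 libraries with atrial transcripts and -0.72 (SE 0.19) with the Y-linked term. In the annotation Tagln (ENSMUSG00000032085, GRCm38 chromosome 9, 45929619 to 45936058, minus strand) shares 108 bases with Pcsk7 on the other strand, which was at 1.83 TPM at most, and 3627 bases with the antisense gene Gm48529, which was not analysed here. Whether the counting used strand is not given in the sources used here.

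Myh11 was at 2.80, 3.30, 4.02 and 2.10 TPM in the controls and at 1.89, 1.35, 1.70 and 2.23 TPM with western diet. The groups overlap at 1 point, since control replicate 4 lies below western diet replicate 4. The log2 fold change was -0.53 (SE 0.16), and it was -0.32 (SE 0.19) without the libraries with atrial transcripts and -0.31 (SE 0.24) with the Y-linked term. Mylk spanned 2.38 to 2.93 TPM in control and 2.20 to 2.49 TPM with western diet, a log2 fold change of -0.12 (SE 0.098). This Mylk value was -0.070 in the atrial-free set and -0.055 with the Y-linked term. Cnn1 was at 0.501 ± 0.239 TPM in control and 0.381 ± 0.173 TPM with western diet, with wide overlap. Control replicate 3, with the most Myl7, also had the highest value of each of the 4 contractile genes. Western diet replicate 2, which has atrial transcripts too, had the lowest Myh11. The part of atrial tissue in these values was not tested.

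Pdgfrb was at 14.7, 13.6, 14.9 and 15.8 TPM in the controls and at 10.1, 11.9, 12.1 and 12.05 TPM in western diet replicates 1 to 4. The groups did not overlap, and the mean was 0.782 times that of the controls. The log2 fold change was -0.33 (SE 0.093), -0.34 (SE 0.16) without the libraries with atrial transcripts and -0.27 (SE 0.14) with the Y-linked term.

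For the other 5 pericyte genes the libraries of the groups overlapped. Rgs5 spanned 119 to 138 TPM in control and 128 to 135 TPM with western diet, inside the control range. Abcc9 spanned 36.8 to 48.6 TPM in control and 33.2 to 53.9 TPM with western diet, wider than the control range at both ends. Notch3, the receptor that Jagged ligands activate on mural cells, spanned 4.25 to 5.44 TPM and 4.31 to 6.16 TPM. Mcam spanned 15.3 to 20.6 TPM and 15.5 to 20.2 TPM. For these 4 genes the log2 fold change lay between -0.03 and 0.05, and its sign turned for each of them under at least 1 of the 16 alternative settings. In the atrial-free set the log2 fold changes of Rgs5, Abcc9, Notch3 and Mcam were 0.016, -0.049, 0.046 and -0.0065. With the Y-linked term those of Rgs5, Notch3 and Mcam were 0.0083, 0.088 and -0.19. The log2 fold change of Abcc9 was -0.36 (SE 0.20) with the Y-linked term, since western diet replicate 4 held its lowest value. Cspg4 was lower in mean, at 1.33 ± 0.222 against 1.70 ± 0.414 TPM, with overlap, and western diet replicate 1 was its lowest library, as for Pdgfrb. The Cspg4 log2 fold change of -0.21 was -0.098 in the atrial-free set and -0.12 with the Y-linked term.

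Of the 9 members that passed the filter on low values, 1 (Tagln) was among the genes past a limma adjusted p of 0.05, where 0.301% of 10969 genes passed, 0.0729% as lower and 0.228% as higher. In 2 of the 9, Tagln and Pdgfrb, all western diet libraries lay below all controls, where 1.75% of genes did and 6.60% were apart in either direction. The choice of the members used this contrast, and nothing is read from these counts. Refits of the same values are no support either, and Tagln passed in 10 of the 16 alternative settings. It did not in the atrial-free set, where 0 genes passed as lower, with the Y-linked term, without a filter, or without control replicate 1, 3 or 4. Over all genes 25 passed as higher and 8 as lower, and 31 and 18 after median-of-ratios scaling. The median log2 fold change was -0.53 for the 3 contractile members tested, -0.02 for the 6 pericyte members and 0.06 for all genes tested. In bulk tissue, fewer cells of a type and less RNA per cell cannot be told apart.

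Summed over the 4 contractile genes, TPM was 25.7, 22.5, 28.8 and 22.0 in the controls and 15.4, 14.5, 12.02 and 16.1 with western diet. Summed over the 6 pericyte genes it was 209.9 ± 17.7 TPM in control and 210.1 ± 11.1 TPM with western diet. The contractile sum was 11.8 ± 1.58% of the pericyte sum in control and 6.95 ± 1.15% with western diet, and the libraries of the groups did not overlap. Both sums lean on few genes. Tagln made up 75.1 ± 3.07% of the contractile sum in control, and Rgs5 and Abcc9 together 81.2 ± 0.844% of the pericyte sum. Without Tagln the contractile sum was 6.19 ± 1.25 TPM in control and 4.50 ± 0.557 TPM with western diet, with overlap. Each gene was also entered once in a mean of log2(TPM + 1), where the added 1 shrinks differences of genes at low TPM. The contractile minus pericyte difference was then -1.94 ± 0.21 in control and -2.25 ± 0.19 with western diet, also with overlap. The change of this difference between groups was -0.32, -0.19 in the atrial-free set and -0.11 with the Y-linked term. It was -0.36 and -0.42 when 0.5 and 0.1 were added in place of 1. Within the pericyte genes, Pdgfrb was 11.6 ± 0.532% of Rgs5 in control and 8.79 ± 0.925% with western diet, and the groups did not overlap.

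**Figure D2:**
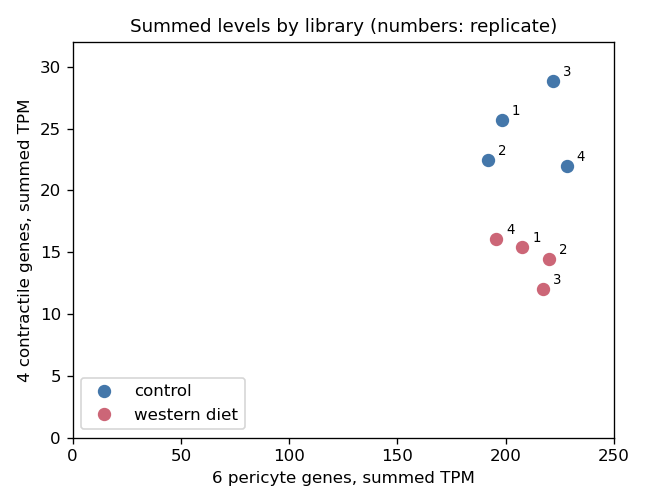
Summed TPM of the 4 contractile genes (vertical axis) against that of the 6 pericyte genes (horizontal axis) in each library, numbered by replicate. The western diet libraries lie between 12.02 and 16.1 on the contractile axis and the controls between 22.0 and 28.8, while both groups share the range of the pericyte axis.

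Variation between libraries of the same group does not use the diet contrast. After the mean of each group was removed, all 6 pairs of contractile genes and 14 of 15 pairs of pericyte genes were positively correlated over the 8 libraries, with median Pearson r of 0.735 and 0.487. Of the 24 pairs between the kinds 11 were positive, with a median of -0.13. The highest of them was Tagln and Notch3, with r = 0.777 (exact permutation p = 0.0590, adjusted 0.573). Its r was -0.257 without the 2 libraries farthest from the median of Tagln. None of the 45 pairs passed after adjustment over them, and 3 had an unadjusted p under 0.05 (exact permutation within groups, two-sided). Tagln and Cnn1 had r = 0.838 (exact permutation p = 0.0278, adjusted 0.417) and Spearman's rho = 0.857 (exact permutation p = 0.0208, adjusted 0.731), and r was 0.954 without the 2 libraries farthest from the median of Tagln. Cnn1 and Mylk had r = 0.863 (exact permutation p = 0.0260, adjusted 0.417), rho = 0.810 (exact permutation p = 0.0451, adjusted 0.731) and r = 0.857 without the 2 farthest. Pdgfrb and Cspg4 had r = 0.831 (exact permutation p = 0.0243, adjusted 0.417), rho = 0.667 (exact permutation p = 0.0990, adjusted 0.731) and r = -0.227 without the 2 farthest, so that relation rests on those libraries. Other contractile pairs moved in both directions without the 2 farthest libraries. The r of Myh11 and Mylk went from 0.718 to 0.143, and that of Tagln and Myh11 from 0.363 to 0.895. Cnn1 was under 1 TPM in every library. The share of positive pairs among all genes was not computed, so the counts of positive pairs have no background. The libraries' tissue makeup and scaling are shared by all genes in them.

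The genes most like Tagln by this measure, among 6393 genes with a mean of at least 5 TPM, were Psmg3, Aldh1a1 and Acsl6 (Pearson r of 0.977, 0.976 and 0.969 over 8 libraries). Those most like Pdgfrb were Pdss1, S1pr3 and Psme4 (0.987, 0.977 and 0.977). They were picked as the highest of all these correlations and carry no test.

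Acta2, smooth muscle actin, had a difference of the opposite sign to Tagln. It was at 30.7, 26.3, 39.2 and 37.4 TPM in the controls and at 117, 71.0, 87.1 and 47.9 TPM in western diet replicates 1 to 4. All western diet libraries lay above all controls, with replicate 4 the nearest. The log2 fold change of 1.20 (SE 0.23) missed the threshold (limma adjusted p = 0.0630). It passed without western diet replicate 4 (1.42, SE 0.18, limma adjusted p = 0.00653), and was 1.30 (SE 0.31, limma adjusted p = 0.268) in the atrial-free set and 0.53 (SE 0.26, limma adjusted p = 0.658) with the Y-linked term. Tagln was 56.5 ± 8.12% of the TPM of Acta2 in control and 13.9 ± 6.29% with western diet. The actin genes are close in sequence, and reads that the quantification moved between Acta2 and the other muscle actins were not tested. The cardiac actin Actc1 was at 6505 to 8542 TPM. Acta1, skeletal muscle actin, was at 320 ± 132 TPM with western diet and 103 ± 24.3 TPM in control, a log2 fold change of 1.54 without overlap (limma adjusted p = 0.0744), and was named after its values were seen.

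The fixed list of other contractile genes held 24, of which 19 were tested. None passed, 11 had the higher and 8 the lower mean, and the median log2 fold change was 0.02. How far the genes of this list are confined to smooth muscle in these hearts was not tested. Over all genes tested 66.4% had the higher mean with western diet, which is the background for such counts here and below. The largest differences after Acta2 were those of Myl9 and Pdlim7. Myl9, the regulatory light chain, was at 17.9 ± 4.82 against 26.6 ± 6.99 TPM, with overlap (limma adjusted p = 0.315), and its highest control was again replicate 3. Its log2 fold change was -0.55, -0.45 in the atrial-free set and -0.73 with the Y-linked term. Pdlim7, a cytoskeletal adaptor, was at 30.5 ± 6.47 TPM with western diet against 21.2 ± 2.72 TPM, without overlap (limma adjusted p = 0.221), and its log2 fold change of 0.48 was 0.45 in the atrial-free set and 0.22 with the Y-linked term.

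Of 22 other pericyte genes 21 were tested and none passed, with 10 higher and 11 lower and a median of -0.04. Kcnj8, the pore of the potassium channel, was at 6.73, 7.18, 5.74 and 6.42 TPM in the controls and at 3.20, 3.42, 4.93 and 5.69 TPM with western diet. Every western diet library was below every control, replicate 4 by the least (log2 fold change -0.52, SE 0.15, limma adjusted p = 0.208). It was -0.50 (SE 0.21) in the atrial-free set and -0.16 (SE 0.20) with the Y-linked term. Its partner Abcc9 showed no such separation. Kcnj8 was 15.4 ± 3.28% of the TPM of Abcc9 in control and 10.5 ± 4.44% with western diet, with overlap. Ednra, an endothelin receptor, measured 10.4 ± 2.12 TPM with western diet and 7.53 ± 1.44 TPM in control (limma adjusted p = 0.361). With the Y-linked term its log2 fold change went from 0.41 (SE 0.16) to -0.015 (SE 0.20), and it was 0.44 in the atrial-free set. Cd248, endosialin, measured 4.83 ± 0.888 and 3.59 ± 0.519 TPM (limma adjusted p = 0.362), a log2 fold change of 0.34, with 0.36 in the atrial-free set and 0.25 with the Y-linked term.

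**Figure D3:**
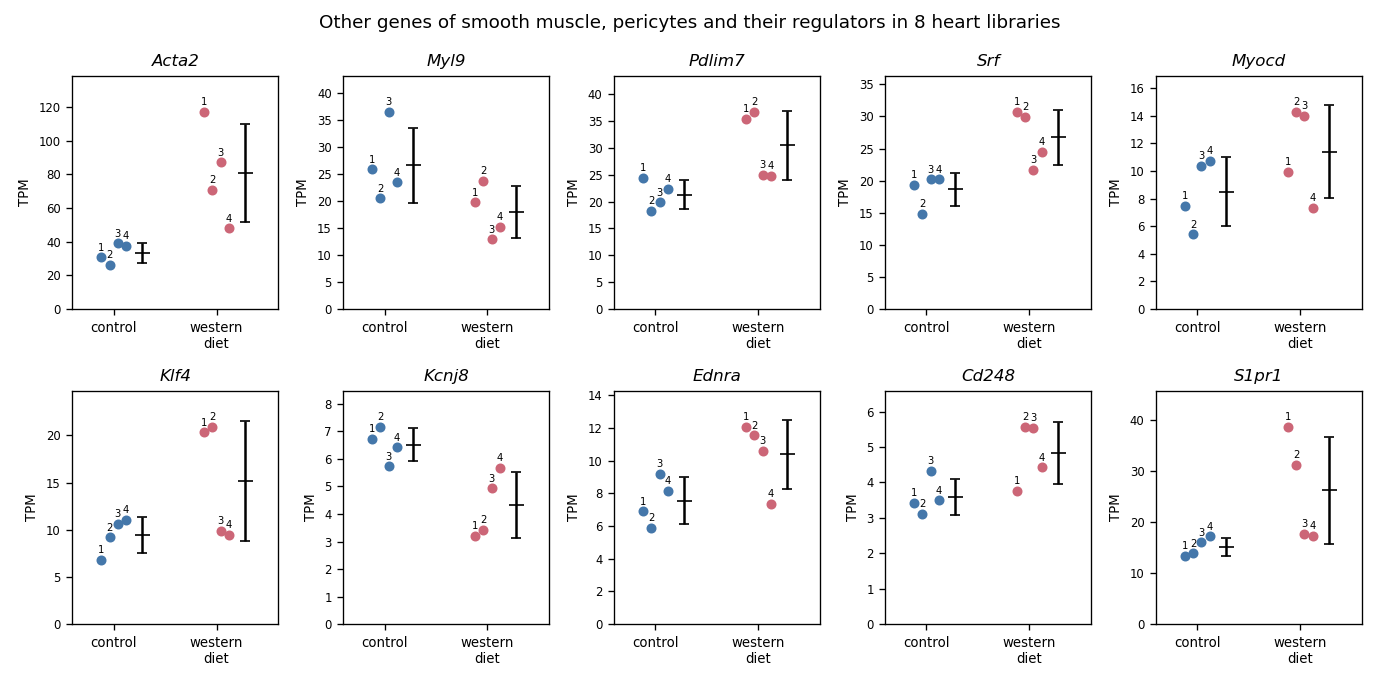
TPM of 10 genes outside the members (vertical axes, each from 0) by library, with replicate numbers, mean and SD of 4. Acta2, Pdlim7, Srf and S1pr1 are higher and Kcnj8 is lower in each western diet library than in any control, and none passed the test across genes.

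SRF and its regulators were a list of 12, of which 10 were tested, 9 with the higher mean. None passed, and the median log2 fold change was 0.20. Srf was at 19.4, 14.9, 20.2 and 20.2 TPM in the controls and at 30.8, 30.0, 21.7 and 24.5 TPM with western diet, a log2 fold change of 0.49 (SE 0.13, limma adjusted p = 0.177). It was 0.52 (SE 0.19) in the atrial-free set and 0.38 (SE 0.21) with the Y-linked term. Every western diet library was above every control, as for 4.85% of all genes tested. Which cells the Srf transcripts came from was not tested. Myocd, myocardin, which cardiomyocytes also express, measured 11.4 ± 3.35 TPM with western diet and 8.49 ± 2.51 TPM in control (limma adjusted p = 0.560). Its log2 fold change was 0.38, 0.36 in the atrial-free set and -0.14 with the Y-linked term. Klf4, which represses contractile genes, was at 20.3 and 20.9 TPM in western diet replicates 1 and 2 and at 9.87 and 9.46 TPM in replicates 3 and 4, within the control range of 6.81 to 11.05 TPM (limma adjusted p = 0.422). The Klf4 log2 fold change of 0.56 (SE 0.25) was 0.28 (SE 0.28) in the atrial-free set and 0.027 (SE 0.36) with the Y-linked term. Mrtfa, a relative of myocardin, named after its values were seen, was at 1.36 ± 0.134 against 0.973 ± 0.0918 TPM, without overlap (limma adjusted p = 0.344).

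Among 21 genes of PDGF, Notch, angiopoietin, TGF beta and sphingosine phosphate signalling 19 were tested and none passed, with a median log2 fold change of 0.06. S1pr1, a receptor of endothelium for sphingosine 1-phosphate, was at 38.7 and 31.2 TPM in western diet replicates 1 and 2 and at 17.7 and 17.3 TPM in replicates 3 and 4, just above the highest control at 17.2 TPM (limma adjusted p = 0.270). The S1pr1 log2 fold change of 0.68 (SE 0.23) was 0.54 (SE 0.30) in the atrial-free set and 0.19 (SE 0.32) with the Y-linked term. Hey1, a Notch target, measured 5.30 ± 1.43 TPM with western diet and 3.79 ± 0.855 TPM in control (limma adjusted p = 0.439). With the Y-linked term its log2 fold change went from 0.39 (SE 0.18) to -0.032 (SE 0.24), and it was 0.31 in the atrial-free set. Angpt2, which loosens the contact of pericytes with endothelium, measured 1.83 ± 0.444 and 1.24 ± 0.415 TPM (limma adjusted p = 0.442), a log2 fold change of 0.34, with 0.48 in the atrial-free set and 0.53 with the Y-linked term. Of the 69 other genes tested in these lists 0 passed by limma and 11 had an unadjusted p under 0.05, as did 11.7% of all genes tested. The groups did not overlap for 5 that were higher and 1 that was lower, where 4.85% and 1.75% of all genes did so.

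**Figure D4:**
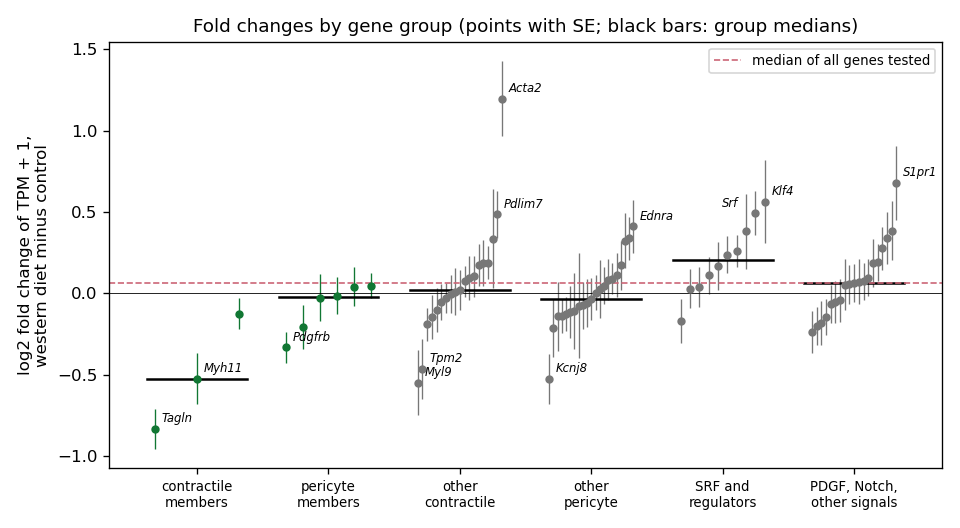
Log2 fold change of TPM + 1 (vertical axis, western diet minus control) for the tested genes of each list, with SE. Black bars are list medians and the dashed line is the median of all genes tested, 0.06; the 3 contractile members lie at or below -0.12, the 6 pericyte members between -0.33 and 0.05, and each of the other 4 lists lies on both sides of the line.

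Markers of the other cell types of the heart are given as sums over fixed lists. Endothelial markers summed to 836 to 888 TPM in control and 846 to 1053 TPM with western diet (10 of 15 higher in mean). Much of that sum is Fabp4, at 494 ± 21.0 TPM in control, and 1 of the 15 passed the test, Cldn5, at 17.3 ± 1.38 against 8.57 ± 0.992 TPM. Fibroblast markers summed to 781 to 1110 and 837 to 1137 TPM (11 of 12 higher), and markers of activated fibroblasts to 19.4 to 32.7 and 20.2 to 35.8 TPM (4 of 5 tested higher). Of the fibroblast markers Col14a1 and Clec3b were higher without overlap, with log2 fold changes of 1.08 and 0.60, and did not pass (limma adjusted p = 0.0744 and 0.188). Cardiomyocyte markers summed to 47641 to 52190 and 40267 to 50137 TPM (7 of 10 lower), and epicardial markers to 2.21 to 4.98 and 3.18 to 7.31 TPM (4 of 5 under 1 TPM in mean). The only epicardial marker tested, Wt1, was higher without overlap, with a log2 fold change of 0.74, and did not pass (limma adjusted p = 0.165). Atrial markers summed to 103 to 6275 and 79.1 to 1575 TPM. No marker of these lists was at 0 in all libraries, and the part of these cells in the mural results was not tested.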

How the data were processed

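Heart RNA of 8 libraries was measured, 4 per group, with groups taken from GEO's labels and replicates numbered in accession order. Per the labels' protocols, RNA was extracted with a Qiagen kit and polyadenylated RNA went into Illumina TruSeq stranded libraries. The authors deposited gene-level TPM, which summed to between 941318 and 953448 per library. Per the submitters' processing notes, kallisto and DESeq2 were used with GRCm38. Their versions and roles, the annotation release and how transcripts were summed to genes: not given in the sources used here.

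GENCODE vM21 named 29732 of 30153 identifiers. The 10969 genes that reached 1 TPM in 4 or more libraries entered a linear model of log2(TPM + 1) on group, fitted by limma (3.58.1, R 4.3.3) with moderated variances that follow an intensity trend. Two-sided p-values were adjusted by Benjamini and Hochberg's method, with a threshold of 0.05. In simulated data, each of these 10969 genes varied independently with its own within-group SD, and changes were set on the log2(TPM + 1) scale. There, 90.2% of 2-fold and 98.6% of 4-fold changes were recovered and 4.50% of calls were false. Differences shared by a library's genes, such as atrial tissue or Y-linked transcripts, were not simulated, so these shares need not hold for this contrast. Correlations used log2(TPM + 1) centred within groups, with 576 permutations. Python 3.11.15, pandas 2.3.3 and matplotlib 3.10.9 made tables and figures.

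The members, the lists of other genes, the tests and the alternatives were chosen with earlier results of these data known. Named besides the members are Acta2, Kcnj8, Srf and Myocd, the genes past the threshold and the 3 largest fold changes of each list, and the 3 genes most like a member, given here for Tagln and Pdgfrb; Mrtfa, Acta1, Actc1 and the library and cell type markers lie outside this rule. Alternatives were other pseudocounts, filters, scalings and thresholds, a Y-linked term (Eif2s3y of at least 1 TPM), leaving out the libraries with Myl7 of at least 100 TPM, and leaving out each library.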

Additional observations from a re-analysis of the deposited data

Results flagged for a closer look

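In 4 of 44 groups of 4 libraries looked at, 1 library lay far from the other 3, where chance gives about 1 in 20. Western diet replicate 1 was the low one for Pdgfrb, at 10.09 TPM, and for Cspg4, at 0.997 TPM. Control replicate 2 was the low one for Notch3, at 4.25 TPM, and for Srf, at 14.9 TPM.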

How the results depend on the processing

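The log2 fold changes of Tagln (-0.91 to -0.72), Myh11 (-0.72 to -0.31), Mylk (-0.18 to -0.055), Pdgfrb (-0.40 to -0.27) and Cspg4 (-0.32 to -0.098) kept their sign under every alternative run, and those of Rgs5, Abcc9, Notch3 and Mcam turned sign in 1, 4, 3 and 4 of 16. The summed contractile and pericyte levels moved by less than the spread between libraries under every alternative run. For the pericyte sum this was narrow with the Y-linked term: its log2 difference went from 0.003464 to -0.0983, against a spread of 0.1019. The log2 difference of the contractile sum went from -0.77 to -0.61 with that term and to -0.63 without the libraries with atrial transcripts. The contractile minus pericyte difference went from -0.32 to -0.11 with the Y-linked term. Of the other mural genes 1, Acta2, passed as higher after scaling without mitochondrial transcripts and at an adjusted p under 0.10, and 0 to 1 did when a library was left out. Over all genes, 25 higher and 8 lower became 3 and 2 without a filter, 13 and 2 at a mean of at least 5 TPM, 45 and 9 with the Y-linked term, 5 and 0 without the libraries with atrial transcripts, and 79 and 16 at an adjusted p under 0.10. Higher calls were 40 after scaling without mitochondrial transcripts, and lower calls 18 after median-of-ratios scaling. Leaving out each library gave 5 to 76 higher and 2 to 19 lower. Fewer samples or genes enter some of these fits; for the others the cause was not tested. Correlations were not run without the libraries with atrial transcripts, since 5 libraries remain. No paired analysis was possible because the replicate numbers are accession order and pair nothing. Depth is unknown, so no counting error or limit of detection is given.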
